A study of Mus musculus with 8 samples.

Results

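The messenger RNAs of 10 cleavage and polyadenylation factors were examined in the ageing mouse brain: Cpsf1, Cpsf2, Cpsf3 and Fip1l1 of the cleavage and polyadenylation specificity factor (CPSF), Cstf1 and Cstf2 of the cleavage stimulation factor (CstF), Nudt21 and Cpsf6 of cleavage factor I (CF I), and Pcf11 and Clp1 of cleavage factor II (CF II). They were chosen by name as subunits of these complexes, with earlier results of these data known. All 10 were among the 22430 genes of the count table and among the 16730 that had enough reads to be tested. The 8 libraries were made from brain RNA of male C57Bl/6JRj mice with no genetic change or treatment, 4 of 6 months (6m, young adult) and 4 of 24 months (24m, aged). The tissue was labelled as whole brain in one place and as a hemisphere in another. Polyadenylated RNA was sequenced, so a transcript had to carry a poly(A) tail to be counted. The study asked how mRNA levels and transcript use change as the brain ages.

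Nearly every mammalian pre-mRNA is cut downstream of a hexamer, most often AAUAAA, and a poly(A) tail is then added to the new 3′ end. CPSF binds the hexamer and holds the endonuclease, CstF binds the U- or GU-rich stretch behind the cut, CF I binds UGUA upstream of it, and CF II links cutting to transcription termination. Many genes carry several such sites, and the levels of these subunits are known to influence which of them is used, hence how long the 3′ untranslated region (UTR) becomes.

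The mRNAs of these factors are themselves cut and polyadenylated, and the last 30 bases of the annotated main transcript are shown for 6 of them, those with an age difference and Clp1, because they differ in the hexamer that the encoded proteins read. Bases come from the GRCm39 assembly at the transcript ends of GENCODE, are written 5′ to 3′ on the gene's own strand as DNA, and capitals mark AATAAA or ATTAAA.
Cpsf1 (chr15:76480006-76480035, minus strand): taaaacacaaagaaaacgatttctttcaga
Cpsf2 (chr12:101972661-101972690, plus strand): ctAATAAATAAAagatgctgagcatgtcat
Cpsf6 (chr10:117189710-117189739, minus strand): tggAATAAAtggactaagaagtacttcacc
Nudt21 (chr8:94741848-94741877, minus strand): cagatgcttcgATTAAAggtgtaagccacc
Cstf2 (chrX:132987704-132987733, plus strand): cccccccAATAAAaaccaattcatgtgttt
Clp1 (chr2:84553127-84553156, minus strand): tgtgtcaaaaaaaaaaaatatttgcttatt

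The 3 transcripts that rose with age (Cpsf2, Cpsf6 and Cstf2, described next) carried AATAAA here, with the first base of the hexamer nearest the end 24, 27 and 23 bases before it. Cpsf2 held 2 overlapping copies. AATAAA also stood in Cstf1, Fip1l1 and Pcf11, which did not pass the test of age. Nudt21, which fell, carried the variant ATTAAA 19 bases before its end. Cpsf1, which also fell, had neither hexamer in its last 50 bases, and its annotated 3′ UTR of 79 bases was the shortest of the 10. Clp1 had none in that window either, but an AATAAA began 69 bases before its end. Searched on the transcript's strand in the last 50 bases, AATAAA was found in 6 of the 10 transcripts, ATTAAA without it in 1 and neither in 3 (Cpsf1, Cpsf3 and Clp1). Among the 16472 tested genes with a coding main transcript the shares were 60.1%, 14.6% and 25.3%. TGTA, the motif of CF I, stood in the last 100 bases of 5 of the 10, against 52.0% of those genes. These matches describe letters at annotated ends, and the ends in use in these brains were not measured here.

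Library totals ranged from 63460940 to 103462414 counts, and every one of the 10 mRNAs had between 516 and 9379 counts in each library. The deepest library, 24m replicate 1, stood apart from the other aged libraries over all genes. Mitochondrially encoded genes took 5.26% to 6.52% of counts at 6m and 3.18% to 3.69% at 24m. Values below are counts per 1e+06 reads (CPM) after scaling by trimmed mean of M values (TMM), log2 fold changes are 24m against 6m with their standard error (SE), and adjusted p-values are from the quasi-likelihood test of edgeR, Benjamini-Hochberg adjusted over all genes tested.

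With age, 3 of the 10 mRNAs rose and 2 fell at an adjusted p of 0.05 or less, and 5 did not pass. Cstf2 rose 1.90-fold, Cpsf2 1.63-fold and Cpsf6 1.43-fold, whereas Nudt21 fell to 0.784 and Cpsf1 to 0.854 of its 6m level. Over all genes tested 32.7% rose and 29.9% fell by the same rule, so a change in 5 of 10 was no more frequent than in the transcriptome, where 62.6% passed. That share depends on the fit. It was 71.2% without 24m replicate 1, and 60.6% when a trend with exonic length was taken out of the counts (the length offset). When a log2 fold change of at least 0.58 in size was also required, Cstf2 and Cpsf2 rose and none fell, against 25.3% and 18.3% of all genes. The 4 aged libraries lay wholly above the 4 young ones for Cpsf2 and Cstf2 and wholly below them for Cpsf1 and Nudt21, as was the case for 28.4% and 26.8% of all genes. The median log2 fold change of the 10 was -0.05, and that of all genes tested was -0.0034. In RNA from whole tissue, a change in the number of cells that express a gene and a change in RNA per cell cannot be told apart.

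**Figure D1:**
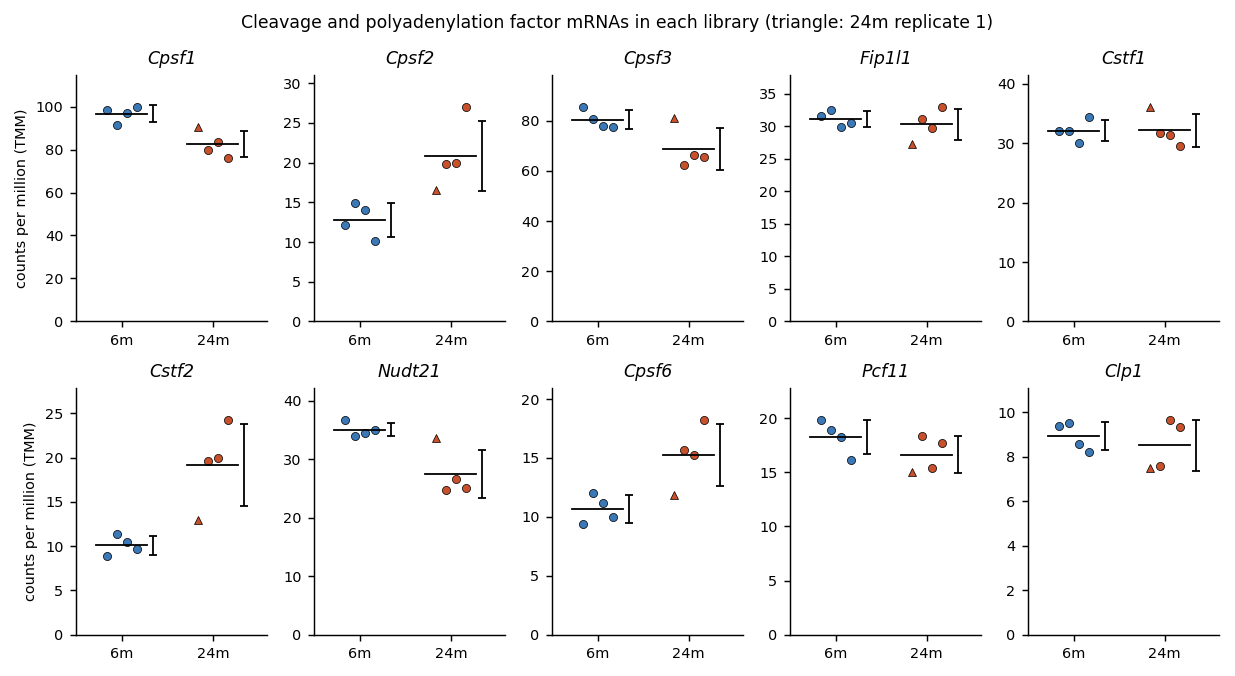
CPM after TMM scaling (vertical axes, each from 0) of the 10 mRNAs in each of the 4 libraries at 6m (blue) and at 24m (orange), with the group mean as a line and the SD as a bar beside it. The aged libraries stand clear above the young ones for Cpsf2 and Cstf2 and below them for Cpsf1 and Nudt21, and 24m replicate 1 (triangle) is the aged library closest to the young ones for these 4 genes.

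Among the CPSF subunits, Cpsf1 encodes the large scaffold protein CPSF160. Cpsf1 (ENSMUSG00000034022, chr15:76480003-76491865) was at 98.5, 91.2, 97.1 and 99.9 CPM in 6m replicates 1 to 4 and at 90.5, 80.0, 83.6 and 76.0 CPM in 24m replicates 1 to 4. The groups did not overlap, although the highest aged value and the lowest young value were less than 1 CPM apart. The log2 fold change was -0.23 (SE 0.08, adjusted p = 0.0290 by edgeR). The call was narrow: it was lost without any 1 of 6 libraries (6m replicates 1, 3 and 4 and 24m replicates 2, 3 and 4; adjusted p from 0.0628 to 0.0839), and with library totals as the only scaling the difference was -0.01.

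Cpsf2 encodes CPSF100, the partner of the endonuclease that has lost the catalytic residues. Cpsf2 (ENSMUSG00000041781, chr12:101941445-101972690) was at 12.2, 14.9, 14.1 and 10.1 CPM at 6m and at 16.6, 19.9, 20.0 and 27.0 CPM at 24m. Every aged library was above every young one, with 24m replicate 4 the highest. The log2 fold change was 0.70 (SE 0.17, adjusted p = 0.0054 by edgeR). Without 24m replicate 4 it was 0.55, under the fold threshold, with an adjusted p of 0.0103, and without 24m replicate 1 it was 0.81.

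Cpsf3 encodes CPSF73, the endonuclease that makes the cut. Cpsf3 (ENSMUSG00000054309, chr12:21335392-21365191) was at 85.5, 80.6, 77.8 and 77.6 CPM at 6m and at 80.8, 62.2, 66.3 and 65.3 CPM at 24m. Here 24m replicate 1 lay within the young range and the other 3 aged libraries lay below it. The log2 fold change of -0.23 (SE 0.10) did not pass (adjusted p = 0.0601 by edgeR), and without 24m replicate 1 it was -0.30 with an adjusted p of 0.0020. With DESeq2 in place of edgeR it passed as lower (-0.23, adjusted p = 0.0398).

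Fip1l1 encodes FIP1, a U-rich RNA binder that brings poly(A) polymerase to the complex. Fip1l1 (ENSMUSG00000029227, chr5:74696067-74759470) was at 31.6, 32.5, 29.8 and 30.5 CPM at 6m and at 27.3, 31.2, 29.8 and 32.99 CPM at 24m. The aged values spanned the young ones on both sides, and the log2 fold change was -0.04 (SE 0.09, adjusted p = 0.720 by edgeR). Within CPSF, then, the mRNA of the inactive nuclease partner rose, that of the scaffold fell slightly, and those of the endonuclease and of FIP1 did not pass.

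In CstF, Cstf1 encodes CstF50, a WD40-repeat protein that contacts RNA polymerase II. Cstf1 (ENSMUSG00000027498, chr2:172212557-172224377) was at 32.0, 32.1, 29.97 and 34.3 CPM at 6m and at 36.2, 31.8, 31.4 and 29.6 CPM at 24m. The 2 means were 32.1 and 32.2 CPM, and the log2 fold change was 0.01 (SE 0.09, adjusted p = 0.959 by edgeR). With library totals as the only scaling, which shifts the median of all genes up by 0.21, it passed as higher (0.22, adjusted p = 0.0193).

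Cstf2 encodes CstF64, the subunit that binds the GU-rich element. Cstf2 (ENSMUSG00000031256, chrX:132959848-132987733) was at 8.89, 11.4, 10.4 and 9.73 CPM at 6m and at 13.0, 19.6, 20.0 and 24.2 CPM at 24m. All aged libraries were above all young ones, and 24m replicate 1 was the lowest of the aged. The log2 fold change was 0.92 (SE 0.18, adjusted p = 0.0016 by edgeR), the largest of the 10, and 1.08 without 24m replicate 1.

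In CF I, Nudt21 encodes the 25 kDa subunit that recognizes UGUA and whose loss in cultured cells is known to shift many mRNAs to upstream poly(A) sites. Nudt21 (ENSMUSG00000031754, chr8:94741848-94763675) was at 36.7, 34.1, 34.6 and 35.0 CPM at 6m and at 33.6, 24.7, 26.7 and 25.0 CPM at 24m. Of the aged libraries 24m replicate 1 was just below the young range and the other 3 were well below it. The log2 fold change was -0.35 (SE 0.11, adjusted p = 0.0181 by edgeR), and -0.45 without 24m replicate 1 (adjusted p = 0.0002). The call was lost without 6m replicate 1 (adjusted p = 0.0504) or without 24m replicate 2 (0.0589), and with library totals alone, where the difference was -0.14 (adjusted p = 0.186).

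Cpsf6 encodes CFIm68, the large subunit that pairs with NUDT21. Cpsf6 (ENSMUSG00000055531, chr10:117180566-117215920) was at 9.43, 12.02, 11.2 and 9.99 CPM at 6m and at 11.9, 15.7, 15.3 and 18.2 CPM at 24m. The lowest aged library, 24m replicate 1, fell just below the highest young one, and the other 3 aged libraries were above the young range. The log2 fold change was 0.52 (SE 0.14, adjusted p = 0.0102 by edgeR), under the fold threshold, and 0.63 without 24m replicate 1. Small and large subunit of CF I thus moved in opposite directions in this fit, but the rise of Cpsf6 was lost when a trend with exonic length (-0.05, adjusted p = 0.656) or with GC content (0.25, adjusted p = 0.125) was taken out of the counts.

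In CF II, Pcf11 binds the carboxy-terminal domain (CTD) of RNA polymerase II and takes part in termination. Pcf11 (ENSMUSG00000041328, chr7:92292670-92319151) was at 19.8, 18.9, 18.2 and 16.1 CPM at 6m and at 15.0, 18.4, 15.4 and 17.7 CPM at 24m, with overlapping groups (log2 fold change -0.14, SE 0.11, adjusted p = 0.286 by edgeR). Clp1 encodes a polynucleotide kinase that also belongs to the tRNA splicing complex. Clp1 (ENSMUSG00000027079, chr2:84552448-84564760) was at 9.39, 9.504, 8.56 and 8.22 CPM at 6m and at 7.48, 7.59, 9.64 and 9.32 CPM at 24m, again overlapping (log2 fold change -0.07, SE 0.12, adjusted p = 0.646 by edgeR). Neither CF II mRNA passed this test, but both passed as lower with DESeq2 on quantile-normalized counts (Pcf11 -0.33, adjusted p = 0.0015, and Clp1 -0.37, adjusted p = 0.0019) and with the GC trend taken out (-0.39, adjusted p = 0.0029, and -0.27, adjusted p = 0.0384).

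The remaining core factors, 10 further genes of the same machinery, give the setting for these values. Of them 3 rose and 3 fell at the adjusted p, beside 32.7% and 29.9% of all genes. Past both thresholds 3 rose and 2 fell, beside 25.3% and 18.3%, and the median of their log2 fold changes was -0.14. With the length offset 3 rose and 6 fell (median -0.42), and without 24m replicate 1, 4 rose and 4 fell. Of the 16730 genes tested, 4875 rose and 5259 fell with that offset, and 6103 rose and 5806 fell without that library. Cpsf7, which encodes the other large CF I subunit (CFIm59), rose from a mean of 18.2 to 35.3 CPM (log2 fold change 0.96, SE 0.11, adjusted p = 0.0001 by edgeR). Cstf2t, an intronless copy of Cstf2 that encodes a second CstF64, rose from 29.4 to 61.7 CPM (1.07, SE 0.20, adjusted p = 0.0015). Reads of Cstf2 and Cstf2t may be shared between these near copies, and how such reads were assigned is not given in the sources used here. Cstf3, which encodes the CstF77 scaffold, fell from 31.1 to 19.7 CPM (-0.66, SE 0.08, adjusted p = 0.0002). In CstF the mRNAs of both RNA-binding subunits thus rose, that of the scaffold fell and that of CstF50 did not pass.

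In the rest of CPSF, Cpsf4, which encodes the zinc finger subunit CPSF30, was lower by 0.32 on the log2 scale (18.0 CPM at 6m, 14.4 CPM at 24m, adjusted p = 0.0084). Wdr33, whose protein contacts AAUAAA together with CPSF30, did not pass (-0.08, adjusted p = 0.343), although its 4 aged libraries lay below the young ones, and it passed as lower with the length offset (-0.73, adjusted p = 0.0049) and the GC offset (-0.30, adjusted p = 0.0088), fits that take a trend with exonic length or GC content out of the counts. Sympk, the symplekin scaffold, did not pass (-0.22, adjusted p = 0.0825), but passed as lower without 24m replicate 1 (-0.26, adjusted p = 0.0236) and with the length offset (-0.62, adjusted p = 0.0062). Rbbp6, a nuclease activator, did not pass (-0.20, adjusted p = 0.213), but did with the length offset (-0.69, adjusted p = 0.0001) and the GC offset (-0.50, adjusted p = 0.00026). For the enzymes and binders of the tail, Papola, the main nuclear poly(A) polymerase, was at 20.6 CPM at 6m and 26.5 CPM at 24m and did not pass (0.36, adjusted p = 0.062), but passed as higher without 24m replicate 1 (0.48, adjusted p = 0.0042). With the length offset it was -0.08 (adjusted p = 0.465) and with the GC offset 0.06 (adjusted p = 0.458). Its relative Papolg rose from 2.99 to 6.02 CPM (1.01, adjusted p = 0.0025). Pabpn1, the nuclear poly(A)-binding protein, fell from 138 to 74.2 CPM (-0.89, adjusted p = 0.0001). Pabpn1 shares 16.4% of its exonic bases with the same-strand gene model Gm20521, so its counts are uncertain.

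**Figure D2:**
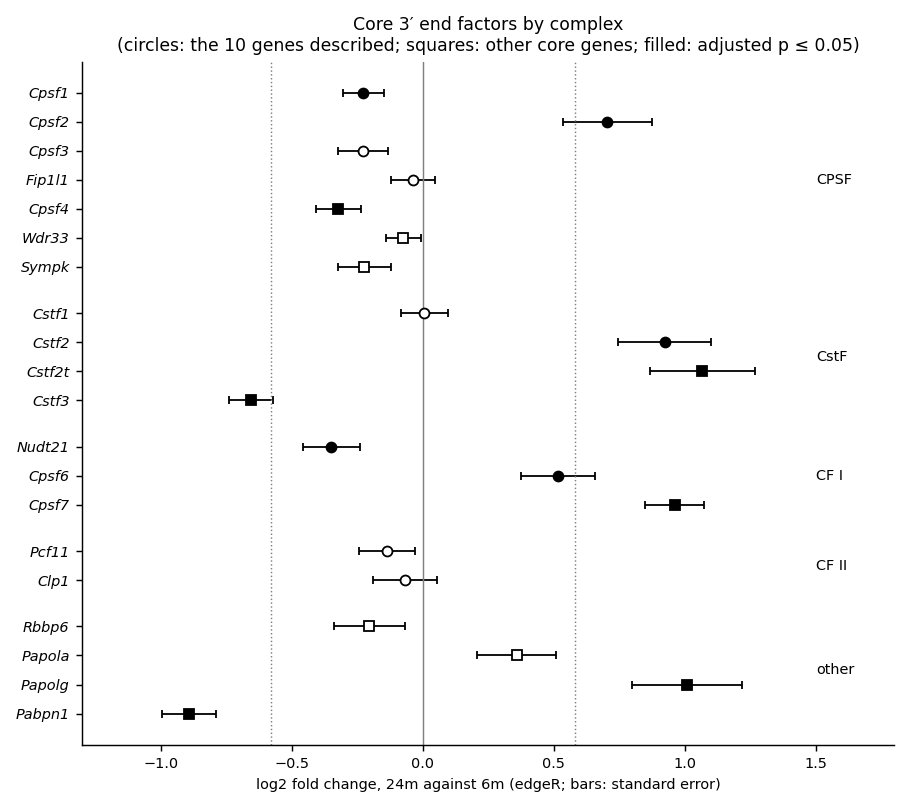
Log2 fold change of 24m against 6m from edgeR (horizontal axis, bars are the SE) for the 10 factors (circles) and the 10 other core genes (squares), ordered by complex, with dotted lines at 0.58 and -0.58 and filled symbols at an adjusted p of 0.05 or less. Subunits of CPSF, CstF and CF I stand on both sides of 0, with Cstf2 at 0.92 beside Cstf3 at -0.66 and Cpsf6 at 0.52 beside Nudt21 at -0.35.

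Levels of different genes were compared per kilobase of the main annotated transcript. At 6m Cpsf3 was the most abundant with 30.5 ± 1.40 CPM per kb (SD, n = 4), followed by Cpsf1 with 21.0 ± 0.83 and Cstf1 with 9.20 ± 0.51. Fip1l1 (6.80 ± 0.26) and Nudt21 (6.62 ± 0.22) were within their spread of each other. Clp1 was at 3.92 ± 0.28. Pcf11 (3.00 ± 0.26) and Cpsf6 (2.74 ± 0.30) were within their spread, as were Cstf2 (2.12 ± 0.22) and Cpsf2 (2.01 ± 0.34), the lowest. The mRNAs that rose with age had the 3 lowest mean levels per kb at 6m. The 6m level is also the base of the fold change, so low level and rise are not independent. At 24m Cstf2 reached 4.03 ± 0.97, Cpsf6 3.91 ± 0.67 and Cpsf2 3.28 ± 0.69 CPM per kb, beside Clp1 at 3.74 ± 0.50 and Pcf11 at 2.73 ± 0.28. Of these 5, Cstf2, Cpsf6, Clp1 and Cpsf2 were within their spread of one another. Divided by all annotated exonic bases instead, Cpsf1 ranked first and Cpsf6 last at both ages, and the 3 mRNAs that rose were again the lowest at 6m. Which of these transcripts is the main one in these brains was not measured here.

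Since subunits of one complex are counted in the same library, the log2 ratio of their counts needs no scaling between libraries. A trend with exonic length or GC content, described below, can still stay in such a ratio. Of 11 ratios, chosen after the fold changes were known, 9 lie within a complex and 2 set a subunit against its paralog, and each was compared with a two-sided exact permutation test over all 70 assignments of the 8 libraries, whose smallest possible p is 0.0286. In 6 ratios the aged and young libraries did not overlap and p was this smallest value. Adjusted over the 11 ratios it was 0.0524 for each of the 6, so none passed 0.05 after correction. The ratios use the counts behind the fold changes above, and several share Cpsf2, so they restate those differences and are no separate support. When any 1 young library was left out, exact p was 0.0571 for Cpsf1 to Cpsf2, Cpsf2 to Cpsf3, Cstf1 to Cstf2 and Nudt21 to Cpsf6. It stayed at 0.0286 for Cpsf2 to Fip1l1 and Cpsf6 to Cpsf7.

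The ratio of Nudt21 to Cpsf6 was 1.96, 1.503, 1.62 and 1.81 (log2) in the young libraries and 1.498, 0.66, 0.81 and 0.46 in the aged ones, a difference of -0.87 (exact p = 0.0286). The lowest young and the highest aged value, those of 6m replicate 2 and 24m replicate 1, were nearly equal. With the length offset the log2 fold changes were -0.45 for Nudt21 and -0.05 for Cpsf6, and with the GC offset -0.59 and 0.25. The ratio of Cstf1 to Cstf2 was 1.85, 1.49, 1.52 and 1.82 at 6m and 1.48, 0.70, 0.65 and 0.29 at 24m, a difference of -0.89 (exact p = 0.0286). Again 24m replicate 1 was next to the young range and the other 3 aged libraries were far from it. The log2 fold changes of Cstf1 and Cstf2 were -0.23 and 0.47 with the length offset and 0.01 and 0.63 with the GC offset.

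In CPSF, every ratio that held Cpsf2 separated the ages. Cpsf2 to Cpsf3, the inactive against the active nuclease, was -2.81, -2.44, -2.47 and -2.94 (log2) at 6m and -2.29, -1.64, -1.73 and -1.27 at 24m, a difference of 0.93 (exact p = 0.0286). Cpsf1 to Cpsf2 differed by -0.93 and Cpsf2 to Fip1l1 by 0.74 (exact p = 0.0286 for both). Without Cpsf2 the ratios overlapped: Cpsf1 to Cpsf3 had means of 0.27 at both ages (exact p = 0.914), Cpsf1 to Fip1l1 differed by -0.19 (exact p = 0.229) and Cpsf3 to Fip1l1 by -0.19 (exact p = 0.2). The overlap of Cpsf3 to Fip1l1 rested on 24m replicate 1, without which the other 3 aged libraries lay below the young ones (-0.32, exact p = 0.0286, unadjusted and the smallest that 3 against 4 allow). Cpsf1 to Fip1l1 was then -0.28 (exact p = 0.0571).

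The CF II ratio, Pcf11 to Clp1, was 1.03 ± 0.06 at 6m and 0.97 ± 0.25 at 24m (log2, SD, n = 4, exact p = 0.657). Of the paralog ratios, Cstf2 to Cstf2t was -1.52 ± 0.16 at 6m and -1.68 ± 0.06 at 24m (SD, n = 4, exact p = 0.171), both genes having risen. Cpsf6 to Cpsf7 was -0.74, -0.79, -0.82 and -0.71 at 6m and -1.46, -1.15, -1.22 and -1.07 at 24m (exact p = 0.0286), so that Cpsf7 rose further than Cpsf6 in every aged library. Here 24m replicate 1 was the aged library farthest from the young ones.

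**Figure D3:**
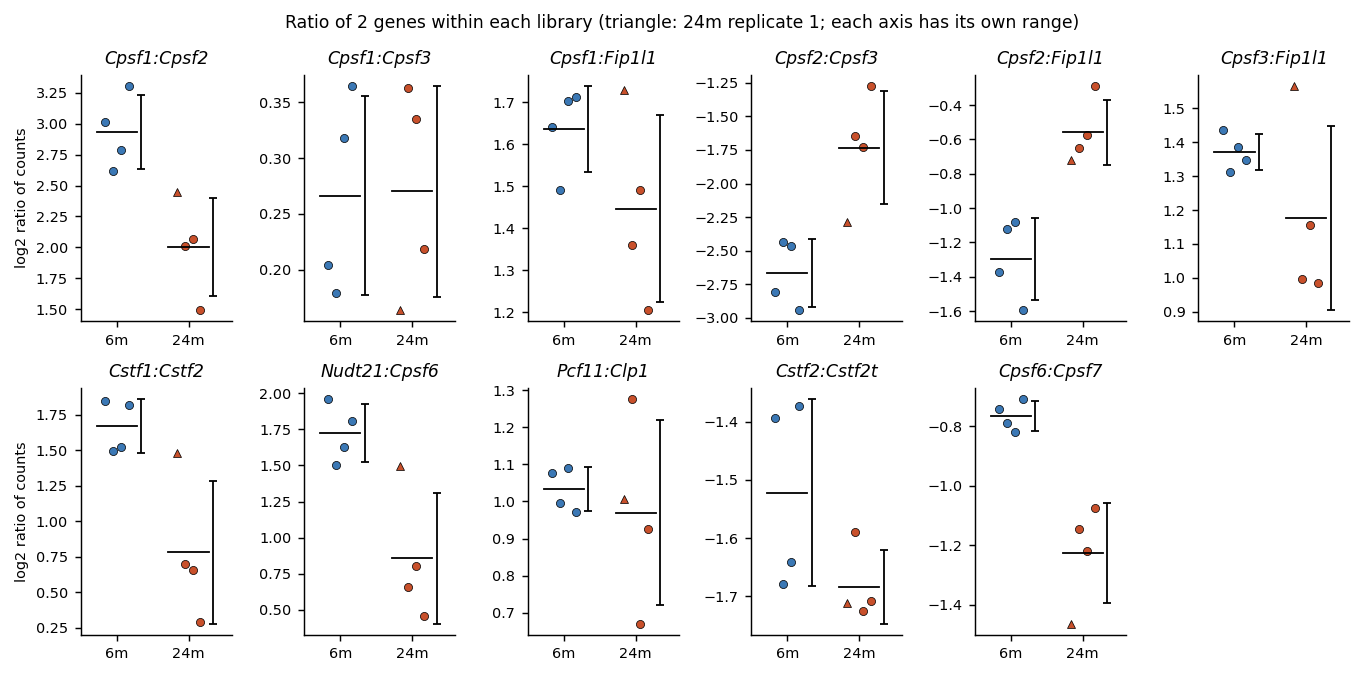
Log2 ratio of the counts of 2 genes within each library (vertical axes, each with its own range) at 6m (blue) and 24m (orange), with group means as lines and SD as bars. The 3 ratios with Cpsf2, Cstf1 to Cstf2, Nudt21 to Cpsf6 and Cpsf6 to Cpsf7 show no overlap between the ages, and the 5 others overlap. No trend with length or GC content was taken out of these counts.

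Exonic length and base composition moved with the fold changes over all genes. Across 16677 tested genes, which share the same 8 libraries, the Spearman correlation of the log2 fold change with exonic length was 0.42 and with exonic GC content -0.21. The 3 mRNAs that rose have 7062 (Cpsf2), 11376 (Cstf2) and 16203 (Cpsf6) annotated exonic bases, and the 2 that fell have 5865 (Cpsf1) and 5813 (Nudt21), beside a median of 5768 over all genes. Fip1l1, with 13836 bases, did not pass. When the trend with length was taken out of the counts, Cpsf2 and Cstf2 still rose (log2 fold change 0.49, adjusted p = 0.0141, and 0.47, adjusted p = 0.0047), but neither reached 0.58. Cpsf6 lost its difference under the same correction, as given above. Cpsf1 and Nudt21 then fell by 0.33 and 0.45 on the log2 scale, and Cpsf3 (-0.58, adjusted p = 0.0048), Fip1l1 (-0.53, adjusted p = 0.0008) and Pcf11 (-0.42, adjusted p = 0.0033) passed as lower. When the trend with GC content was taken out, Cpsf6 and Cpsf1 (-0.06, adjusted p = 0.368) did not pass, while Nudt21 reached -0.59 (adjusted p = 0.0137). Cpsf3 (-0.32, adjusted p = 0.0173), Fip1l1 (-0.33, adjusted p = 0.0145), Pcf11 and Clp1 then passed as lower.

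**Figure D4:**
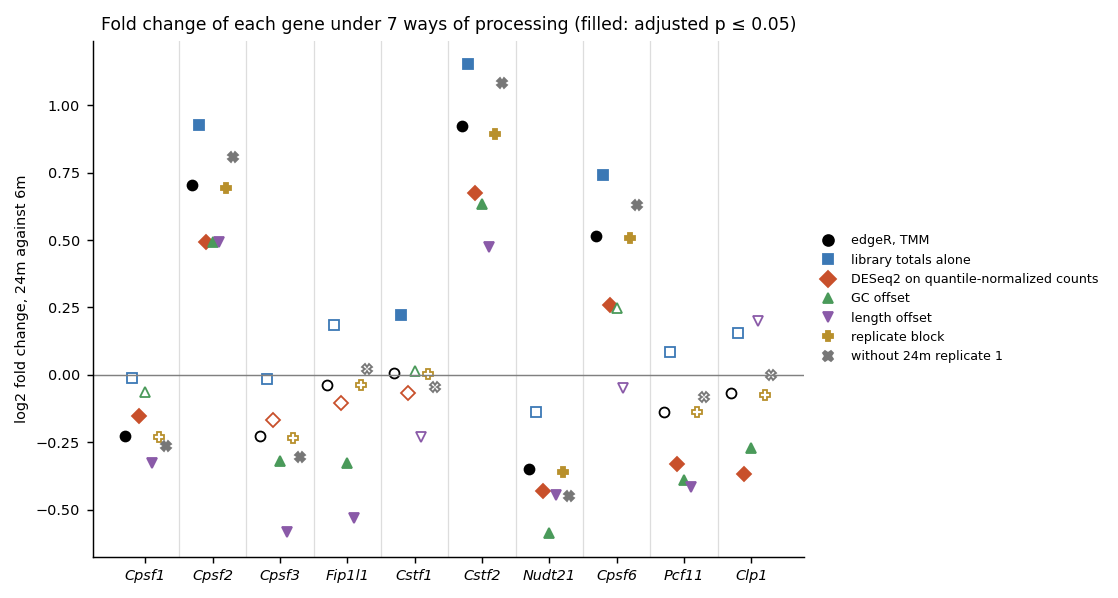
Log2 fold change of 24m against 6m (vertical axis) of each of the 10 mRNAs under 7 ways of processing the same counts, with filled symbols at an adjusted p of 0.05 or less. Cpsf2 and Cstf2 stay above 0 and filled throughout and Nudt21 stays below 0, whereas Cpsf6 drops from 0.52 to -0.05 with the length offset and Fip1l1 and Cpsf3 move down to -0.53 and -0.58.

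Several of the 10 genes overlap another gene on the opposite strand, and whether counting used the strand is not given in the sources used here. Of the exonic bases of Cpsf2, 13.1% are shared with Ndufb1, a complex I subunit gene whose counts fell (log2 fold change -1.22), opposite to the rise of Cpsf2. Nudt21 shares 4.8% with Ogfod1, which rose (2.21) where Nudt21 fell. Cpsf3 shares 6.5% with Itgb1bp1, which fell (-0.70), and Fip1l1 shares 17.5% with Lnx1 (-0.28, adjusted p = 0.0503). Cstf1 shares 3.93% with Aurka and Cpsf1 0.58% with Adck5, while Cstf2 shares 4.96% with Nox1, which had too few reads to be tested. Cpsf6 overlaps no annotated gene. The part of these overlaps in the counts was not tested.

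Other gene lists around 3′ end formation were described by their counts and medians. Without 24m replicate 1 more of the 16730 genes passed, 6103 higher and 5806 lower, against 5479 and 4999 in the main fit. With the length offset these numbers were 4875 and 5259. Among 13 factors of termination and of the polymerase CTD, 10 rose and 1 fell at the adjusted p, beside 32.7% and 29.9% of all genes. Past both thresholds 5 rose, beside 25.3%, and the median log2 fold change was 0.53. With the length offset 6 rose and 3 fell (Xrn2, Scaf4 and Ssu72), and the median was 0.19. Without 24m replicate 1, 8 rose and 1 fell past both thresholds, as did 4644 and 3661 of all genes. The largest rises were those of Rprd1a (1.44) and Rprd1b (1.30), which encode CTD-binding proteins, of Cdk12 (1.21), a CTD kinase, and of Wdr82 (1.16), which acts with a phosphatase in termination. Each of these 4 passed in each of the 21 alternative fits. The gene that fell was Ssu72 (-0.52), a CTD phosphatase associated with CPSF, named after its value was seen.

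Of 14 Integrator subunits 4 rose and 2 fell, beside 32.7% and 29.9% of all genes, with a median of -0.02. These subunits cut small nuclear RNA precursors and nascent transcripts near promoters. Only Ints2 passed both thresholds (log2 fold change 0.63, adjusted p = 0.0163), and it did not pass with the length offset (0.17, adjusted p = 0.309), with which none of the 14 rose and 7 fell. Without 24m replicate 1, 5 rose and 3 of them passed both thresholds, when 71.2% of all genes passed at the adjusted p. Of 5 histone pre-mRNA 3′ end genes, Lsm11 rose (0.96) and Lsm10 fell (-0.73), the products of which sit side by side in the U7 particle. Of 5 genes of tRNA splicing (4 of the endonuclease complex that CLP1 binds, and the ligase gene Rtcb), none rose and 4 fell, beside 32.7% and 29.9% of all genes, with a median of -0.31 (-0.62 with the length offset and -0.49 without 24m replicate 1, when all 5 fell). Tsen54 (-0.65) and Tsen15 (-0.59), structural subunits of the endonuclease, passed both thresholds.

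Of 14 RNA-binding proteins known to influence the choice of poly(A) site, 5 rose and 3 fell past both thresholds, beside 25.3% and 18.3% of all genes. The median of their log2 fold changes was -0.08. With the length offset 4 rose and 8 fell at the adjusted p (median -0.36). Mbnl1 (2.29), Mbnl2 (1.77), Elavl2 (1.54) and Ptbp2 (1.09) had the largest rises. The neuronal splicing factor gene Nova1 (-1.29), Snrnp70 (-0.91), which encodes a U1 particle protein, and Elavl4 (-0.72) fell. Of 14 genes acting on the tail in the cytoplasm 6 rose and 1 fell at the adjusted p, beside 32.7% and 29.9% of all genes. Past both thresholds 6 rose and 0 fell, beside 25.3% and 18.3%, and the median was 0.39. With the length offset 6 rose and 6 fell at the adjusted p (median -0.05), and without 24m replicate 1, 8 rose and 1 fell. In those fits 60.6% and 71.2% of all genes passed. Cpeb4 (2.94), Cpeb2 (2.24) and Cpeb3 (1.87), which encode binders of the cytoplasmic polyadenylation element, and the deadenylase gene Cnot6l (1.22) rose most.

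**Figure D5:**
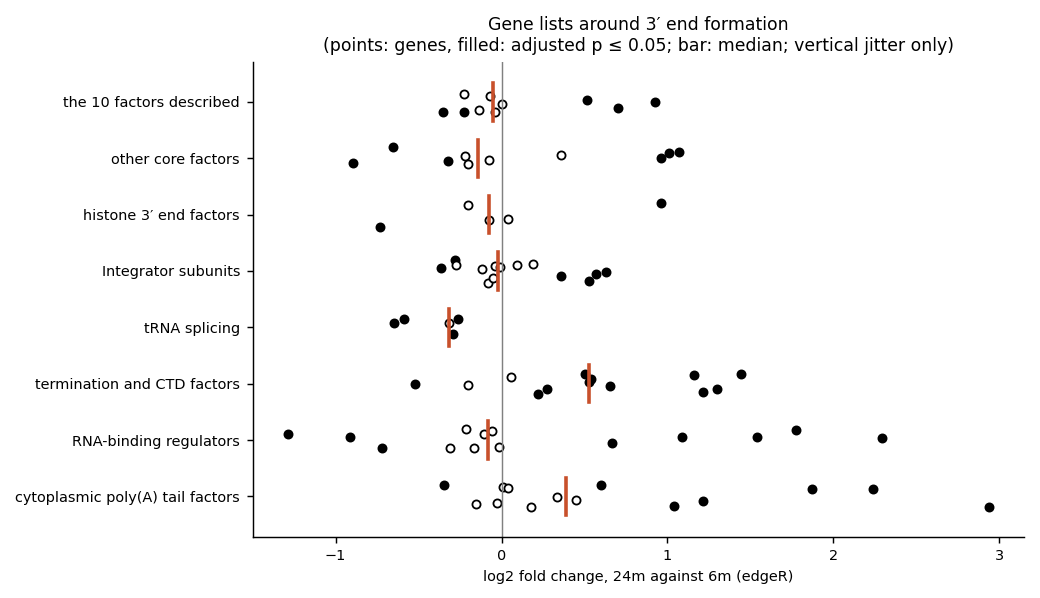
Log2 fold change of 24m against 6m from edgeR (horizontal axis) of every gene in 8 lists, with filled points at an adjusted p of 0.05 or less and a bar at the list's median. The 10 factors lie between -0.35 and 0.92, the termination and CTD factors have a median of 0.53, and the cytoplasmic tail factors reach 2.94.

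Markers of brain cell types were counted in the same libraries. Those of 10 neuronal genes summed to between 4542 and 4836 CPM at 6m and between 4888 and 5520 CPM at 24m, with 4 genes higher and 2 lower (5 and 3 without 24m replicate 1), so neuronal markers were abundant in each library. Of 8 microglial markers 5 rose and none fell, their sum being 426 to 455 CPM at 6m and 446 to 591 CPM at 24m. Without 24m replicate 1, Aif1 fell (-0.53, adjusted p = 0.00097). Of 8 astrocyte markers 5 rose and 1 fell, or 3 fell without 24m replicate 1 (2892 to 3826 CPM and 2847 to 3844 CPM). Most of that sum was Aldoc, at means of 2507 CPM at 6m and 2057 CPM at 24m, so it says little about the 5 that rose. Of 8 oligodendrocyte markers 1 rose and none fell (3456 to 4323 CPM and 3713 to 4326 CPM), where 2 rose and 2 fell (Mag and Opalin) without 24m replicate 1. Of 8 endothelial markers 2 rose and 3 fell (3 and 3 without it). The choroid plexus sum was 1775 to 3200 CPM at 6m and 812 to 2249 CPM at 24m, with 1 of 5 markers higher and none lower, and Ttr (-1.08) and Folr1 (-1.25) lower without it. For 6 plasma cell and blood genes, 2 of which rose and 3 fell, the sum was 2984 to 4137 CPM at 6m and 708 to 3360 CPM at 24m. Without 24m replicate 1, 1 of them rose (Igkc, 2.36 in place of 6.94) and 4 fell, Jchain did not pass (0.83 in place of 3.63, adjusted p = 0.291) and Ighm was lower (-0.35, adjusted p = 0.0423). All these marker calls are at the adjusted p, where 32.7% of all genes rose and 29.9% fell. Without 24m replicate 1, 71.2% of all genes passed. The part of the makeup of the tissue in the differences of the 10 mRNAs was not tested.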

How the data were processed

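Polyadenylated brain RNA of 8 male mice (4 of 6 months, 4 of 24 months) was sequenced on an Illumina instrument from directional libraries. Per the submitters' processing notes and the methods of the study, the authors trimmed reads with Trim Galore 0.4.11, aligned them to GRCm39 with HISAT2 2.1.0 and counted them per Ensembl gene with featureCounts. The table the authors deposited holds whole-number counts, with no normalization and no replicates pooled. The strand setting and the treatment of multimapping reads are not given in the sources used here, and 149 of 22430 genes did not match the GENCODE release used here for positions.

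A gene was tested if 4 or more libraries had over 5 counts of it (16730 genes). The model was that of edgeR 4.0.16 run in R 4.3.3, a quasi-likelihood fit with age alone and TMM factors. DESeq2 1.42.0, limma 3.58.1, other scalings and filters, offsets from a smooth trend on exonic length or GC content, a replicate block and leaving out each library were the alternatives. The fit was also run on counts simulated from its own model, which checks the code and not the model. CPM used TMM-scaled library sizes, and ratios used raw counts. Exact tests went through all assignments of the libraries, and Spearman correlations were made with SciPy 1.17.1. No pair of libraries agreed within sampling noise, so each counted as 1 replicate.

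The 10 genes and the lists were chosen with earlier results of these data known. All 10 are given whatever their result, as are the 10 other core factors. In the other lists up to 4 genes a direction past both thresholds were named, by size of the log2 fold change.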

Additional observations from a re-analysis of the deposited data

Results flagged for a closer look

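Over 42 groups of 4 libraries (the CPM of the 10 mRNAs and the 11 log2 ratios at each age), 1 held a library far from the other 3 by Dixon's criterion, which chance meets in about 1 group in 20. It was the log2 ratio of Cstf2 to Cstf2t counts in 24m replicate 2, at -1.59, where the other aged libraries were between -1.72 and -1.71. The value lay within the range of the young libraries (-1.68 to -1.37).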

How the results depend on the processing

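Cpsf2, Cstf2 and, outside the offset fits, Cpsf6 rose at the adjusted p under the alternative scalings, filters, tools and left-out libraries, and at an adjusted p of 0.01 Cpsf2 and Cstf2 remained. The number of the 10 mRNAs that fell was less stable than the main value of 2. It was 0 with library totals alone (where 4 rose, Cstf1 being added), 3 with DESeq2 (Cpsf3 being added), 4 with DESeq2 on quantile-normalized counts, 5 with the length offset, 5 with the GC offset and 0 at an adjusted p of 0.01. Of the 16730 genes tested, 6163 fell with quantile normalization, 5259 with the length offset and 5668 with the GC offset, against 4999 as reported. Library totals alone moved the median over all genes to 0.21 on the log2 scale (6988 genes higher, 3381 lower), and quantile normalization moved it to -0.10. Leaving out 1 library gave 0 to 3 mRNAs that fell (0 without 6m replicate 1 or 24m replicate 2, 3 without 24m replicate 1) and 1 to 3 that rose past both thresholds (1 without 24m replicate 4, 3 without 24m replicate 1). That second number was 1 with DESeq2 on quantile-normalized counts, 0 with the length offset and 1 with the GC offset, and 1 mRNA fell past both thresholds with either offset (Cpsf3 with length, Nudt21 with GC). Cpsf6 turned to -0.0474 with the length offset and to -0.0453 with the replicate block and length offset together. Of all genes 71.2% passed without 24m replicate 1, 55.2% without 6m replicate 1 and 55.1% without 24m replicate 2. The cause of these shifts was not tested.

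Replicate numbers are shared by the ages, but same-numbered libraries correlated at 0.27, 0.14, 0.08 and -0.35, and the labels give no shared litter or day, so they were not taken as pairs. With the replicate block 1 mRNA fell, Nudt21 (adjusted p = 0.0215), with Cpsf1 at 0.0666. With the block and length offset together Cpsf2 and Cstf2 rose and 5 mRNAs fell at the adjusted p, but past both thresholds 0 rose and 1 fell.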
